A study of Homo sapiens with 9 samples.

Results

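The replication-dependent histone genes were read in 9 libraries of HEK293T cells, a human embryonic kidney line that carries the large T antigen of SV40. They were taken as every row of the count table whose symbol began with HIST1H, HIST2H, HIST3H or HIST4H, which gave 71 of 19969 rows. The class and the cluster of each gene were read from its symbol. Linker histone H1 had 6 rows, H2A had 17, H2B had 18, H3 had 15 and H4 had 15. By cluster, 55 rows were HIST1, 12 HIST2, 3 HIST3 and 1 HIST4. The rule used no measured value.

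The series concerns m6A, N6-methyladenosine, a methylated base of RNA. RNA was sequenced after removal of ribosomal RNA. Cells with an FHY1-M3 construct and a guide RNA gave 6 libraries, 2 each with the ACTB sgRNA, the con sgRNA and the non-target sgRNA, and 3 libraries were called input. FHY1 is a light-signalling protein of the plant Arabidopsis, and an sgRNA is a short RNA that directs a Cas protein to a sequence; what M3 stands for is not given. The labels give for the inputs neither construct nor guide, and for no library a light treatment, a promoter, a culture time or the number of clones. For the 6 FHY1-M3 libraries the kind of RNA, total or immunoprecipitated, is not told. The con columns of the count table are named con_ACTB_sgRNA and the sample titles con_sgRNA, which leaves it unknown whether that group carried the ACTB guide. Nothing states that replicates were separate cultures, and p-values therefore measure the spread between libraries, which may be technical.

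Histones of these classes package newly copied DNA. Their genes lack introns, sit together in clusters and are transcribed mainly in S phase. In place of a poly(A) tail their mRNAs carry a 3′ stem-loop, which is bound by SLBP and cut by a complex that holds the U7 small nuclear ribonucleoprotein, and the mRNAs are degraded when replication stops. Some members also have described polyadenylated forms, used in differentiated or resting cells. H2A, H2B, H3 and H4 form the core of the nucleosome, and H1 binds the DNA between nucleosomes.

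All 71 symbols matched a RefSeq gene (GRCh38.p14) through an older name, and 66 had a promoter sequence. The 250 bases before the annotated start are shown for 4 HIST1 genes of chromosome 6, from RefSeq, GRCh38.p14, 5′ to 3′ on the gene's own strand. HIST1H1E had the highest level, HIST1H2AG led the H2A class, and HIST1H4B and HIST1H4D are 2 H4 genes with unlike values below; they were chosen after the values were seen. Capitals mark 4 motifs on either strand. These are the TATA box letters TATAAA, the CCAAT box, the octamer, which is ATTTGCAT, and the H1 box, which is AAACACA. The stretches are chr6:26156079-26156328 on the plus strand, chr6:27132793-27133042 on the plus strand, chr6:26027284-26027533 on the minus strand and chr6:26189113-26189362 on the minus strand, in that order.
HIST1H1E: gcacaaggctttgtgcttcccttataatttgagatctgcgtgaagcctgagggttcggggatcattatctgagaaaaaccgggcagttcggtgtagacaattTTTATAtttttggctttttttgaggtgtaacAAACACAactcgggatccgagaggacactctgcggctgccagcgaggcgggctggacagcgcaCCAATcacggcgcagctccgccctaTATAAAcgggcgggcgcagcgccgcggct
HIST1H2AG: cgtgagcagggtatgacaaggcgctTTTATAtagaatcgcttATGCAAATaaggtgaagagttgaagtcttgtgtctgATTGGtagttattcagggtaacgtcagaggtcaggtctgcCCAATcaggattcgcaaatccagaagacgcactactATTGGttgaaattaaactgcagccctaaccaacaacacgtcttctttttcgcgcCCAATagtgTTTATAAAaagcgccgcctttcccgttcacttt
HIST1H4B: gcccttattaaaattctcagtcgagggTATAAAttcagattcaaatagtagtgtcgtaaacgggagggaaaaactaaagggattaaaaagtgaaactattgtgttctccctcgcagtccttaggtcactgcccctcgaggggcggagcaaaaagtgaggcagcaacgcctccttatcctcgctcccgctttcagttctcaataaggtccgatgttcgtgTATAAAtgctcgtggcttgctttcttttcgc
HIST1H4D: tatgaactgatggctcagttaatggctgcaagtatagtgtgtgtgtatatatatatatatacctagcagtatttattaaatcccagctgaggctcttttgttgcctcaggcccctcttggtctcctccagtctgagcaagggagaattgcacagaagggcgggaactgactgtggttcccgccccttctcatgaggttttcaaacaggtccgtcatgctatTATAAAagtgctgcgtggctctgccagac

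In each of the 4 a TATAAA began 29 or 31 bases before the start. HIST1H1E held the H1 box 117 bases and CCAAT 54 bases before its start. HIST1H2AG held the octamer in reverse, 208 bases before its start, and the stretch reaches the start of HIST1H2BJ, the H2B gene on the other strand. Near the start of HIST1H2AG, a match of TATAAA on each strand overlaps the other. HIST1H4B and HIST1H4D held neither CCAAT, octamer nor H1 box in these letters.

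The classes differed in these letters over the full windows, 250 bases before to 50 after the start, both strands searched. CCAAT was found in 6 of 6 H1, 16 of 16 H2A, 18 of 18 H2B and 13 of 13 H3 promoters, but in 3 of 13 H4 promoters, against 34.6% of all 35116 promoters of that length. The octamer was in 11 of 16 H2A and 14 of 18 H2B promoters, in 1 of 13 H3 promoters and in 0 of the H1 and H4 promoters, against 1.77% of all. Windows of H2A and H2B genes with close starts overlap, so a match can count for both and these class counts are not independent. The H3 promoter with the octamer is that of HIST1H3D, whose start is also that of HIST1H2AD. TATAAA was in 66.7% of the 66 and in 11.5% of all. The H1 box was in 6 of 6 H1, 1 of 16 H2A, 2 of 13 H3 and 0 of the H2B and H4 promoters, against 5.64% of all. A match describes the letters and does not show that a factor binds.

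Libraries differed in depth, with 2900021 to 3802681 counts in the 6 FHY1-M3 libraries and 350413, 643954 and 391710 in the inputs. Replicates differed by more than sampling noise in all pairs, with counts halved so that both mates of a pair count once (chi-square over degrees of freedom of 1.80 to 5.12). ACTB, the gene the guide is named for, stood at 1310 to 1383 CPM in the FHY1-M3 libraries and 1546 to 1798 CPM in the inputs. Of the genes listed for the line, VIM stood at 736 CPM and 773 CPM (means of FHY1-M3 and input). KRT8, KRT18, NEFL, NEFM, INA, PAX2 and LHX1 also had enough counts to be tested. Of those listed for other cell types, PTPRC and CD3E, which mark blood cells, were at 0 in all 9 libraries. HBB, ALB and PECAM1 had counts too low to be tested, and COL1A1 was tested. The markers of other cell types were thus not all absent.

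Of the 71 histone rows, 9 were at 0 in every library (a count of 0 allows up to 3 counts, for counting error only), 19 had counts but fell below the low-count filter, and 43 were tested. The rows below the filter held 0.482% of all histone counts. The highest of them were HIST2H4A with 38 counts over the 9 libraries, HIST2H4B with 21 and HIST2H2AA4 with 20. HIST2H4A and HIST2H4B are copies of each other, as are HIST2H2AA3 and HIST2H2AA4, and HIST2H3A and HIST2H3C. HIST2H3D, of the same class and cluster, may share sequence with HIST2H3A and HIST2H3C. How reads that match several copies were counted is not given in the sources used here, so single values of these genes are uncertain. In addition, 12 of the 71 genes overlap another RefSeq gene. HIST1H4I lies within the annotated span of HIST1H2BK, and reads of the pair cannot be told apart without a stated strand setting.

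Together the 71 rows took 0.139% ± 0.00593 of the counts in the FHY1-M3 libraries (SD, n = 6; range 0.132% to 0.149%) and 0.887% ± 0.0780 in the inputs (n = 3; range 0.797% to 0.938%). By guide the mean share was 0.135% with the ACTB sgRNA, 0.137% with con and 0.145% with non-target. Every FHY1-M3 library was below every input. In CPM (which are counts scaled to a common library total after TMM scaling), the summed histone level was 6.65-fold lower in the FHY1-M3 libraries. In these bulk libraries, fewer cells with histone mRNA, less of it per cell and another kind of RNA in the library cannot be told apart.

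FHY1-M3 libraries were compared with input gene by gene, as the mean of the 3 guides against the 3 inputs, to show how the members differed between the 2 kinds of library. Of the 43 tested histone genes, 37 were lower, 0 were higher and 6 did not pass the test (edgeR quasi-likelihood F test, Benjamini-Hochberg adjusted p below 0.05). Over all 13411 rows tested, 8.6% were lower by the same rule. The median log2 fold change of the 43 was -2.75, a level 6.75-fold lower, against 0.04 over all rows. The 43 ranged from -5.51 (HIST1H2AB) to 0.16 (HIST1H4I). In 37 of the 43, every FHY1-M3 library lay below every input, against 8.51% of all rows. A called log2 fold change at or below -2 was measured in 31 members, against 1.91% of all rows.

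**Figure D1:**
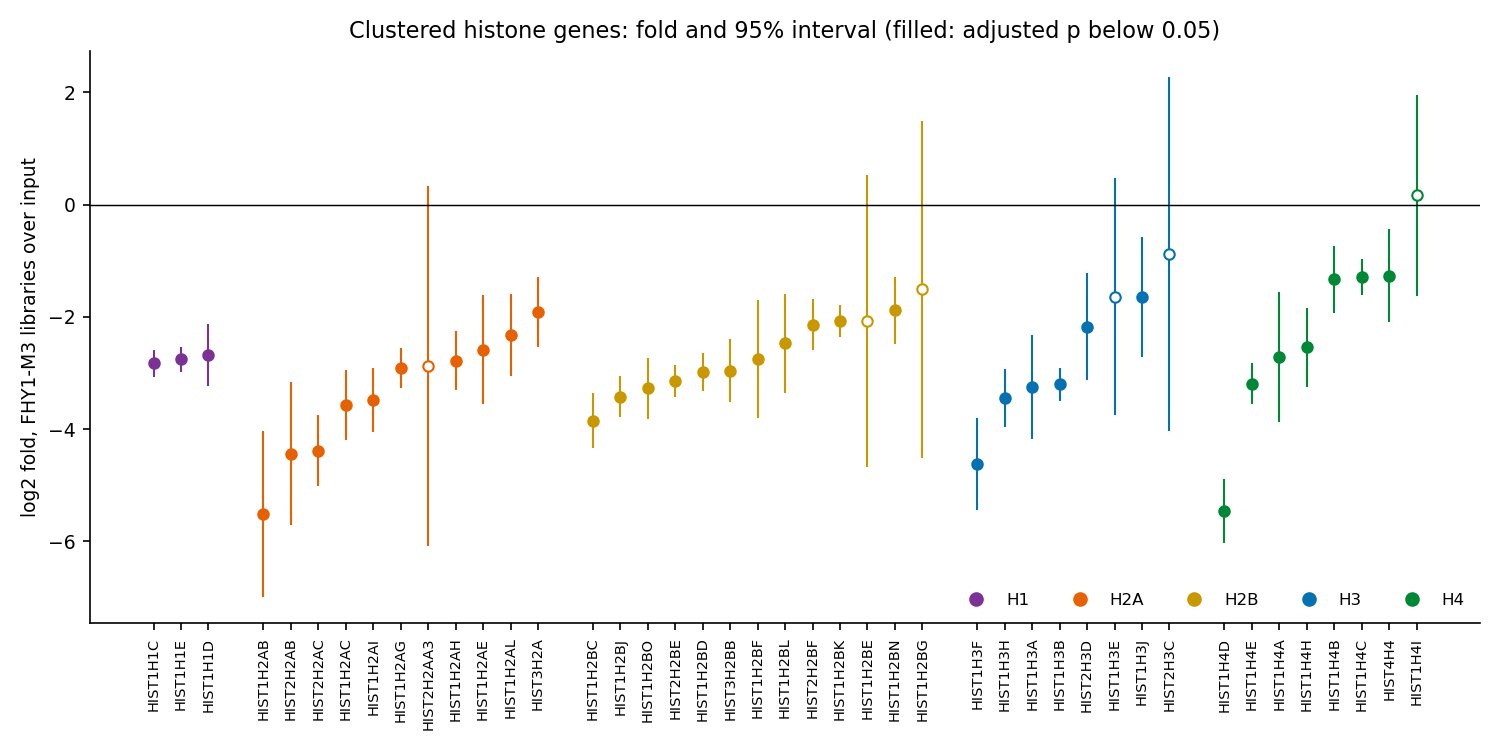
Log2 fold change of the 43 tested histone genes, FHY1-M3 libraries (n = 6) over input (n = 3), with 95% intervals, ordered within each class and coloured by class. Filled points passed the adjusted threshold. The 3 H1 genes lie close together, while the 8 H4 genes spread from -5.46 to 0.16, and the 6 open points have wide intervals.

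Class by class, 3 of 3 tested genes were lower for H1, 10 of 11 for H2A and 11 of 13 for H2B. For H3 it was 6 of 8 and for H4 7 of 8, against 8.6% of all rows. The medians of the log2 fold changes were -2.75, -2.91, -2.75, -2.69 and -1.93 in that order. They depend on which genes enter: without a low-count filter H1 was at -0.68 and H3 at -1.89, with a minimum mean of 10 CPM H4 was at -2.62, and DESeq2 gave -2.0 for H3. Summed levels over all rows of a class were lower by 6.77-fold for H1, 8.06-fold for H2A, 6.66-fold for H2B, 8.42-fold for H3 and 4.61-fold for H4. Within the histone counts of a library, the H4 share was 16.9% to 19.7% in the FHY1-M3 libraries and 12.4% to 13.5% in the inputs, which do not overlap. The H3 share was 9.01% ± 1.08 (n = 6) against 11.4% ± 0.288 (n = 3), with ranges that meet at 11.06%. H2A took 12.6% ± 2.26 against 15.3% ± 1.88, H2B took 31.4% ± 2.36 against 31.5% ± 1.22 and H1 took 28.6% ± 4.03 against 28.9% ± 3.18. These shares are descriptions, since members of a class share sequence and no test was made over a class.

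**Figure D2:**
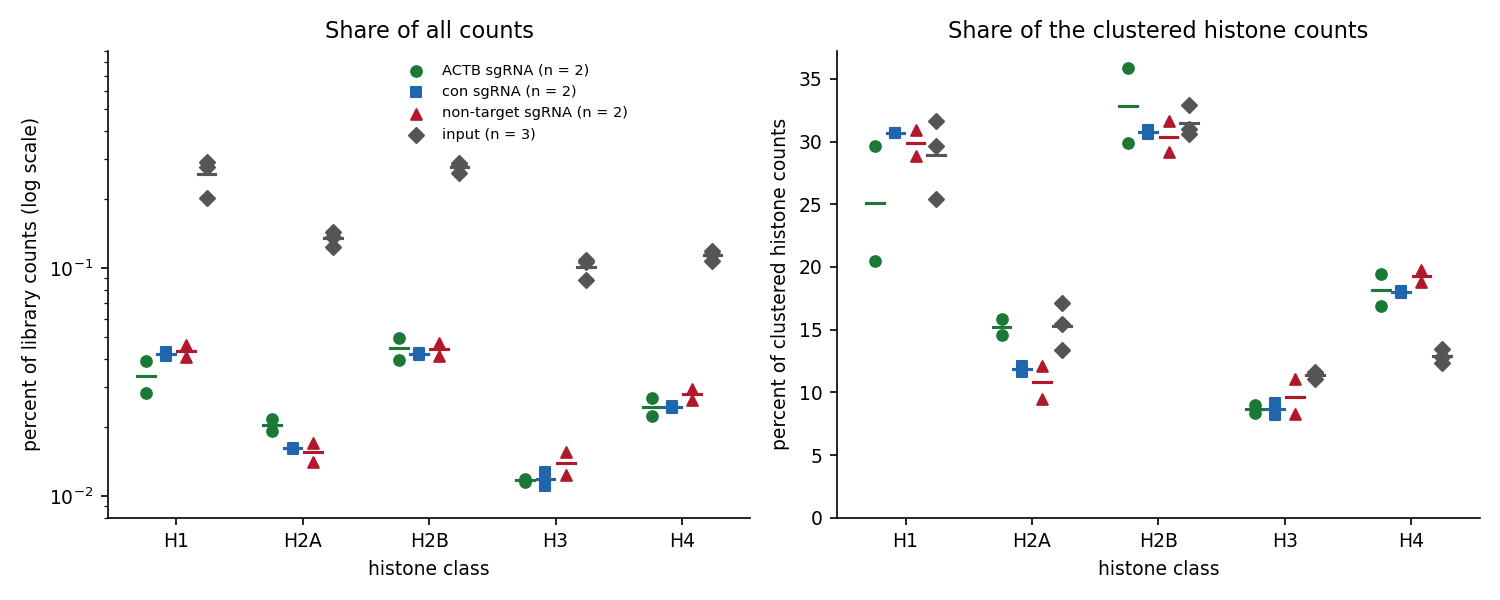
Share of each histone class in all counts of a library (left, log scale) and in the histone counts of that library (right), in percent, with 1 point per library and a bar for the group mean (n = 2 per guide, n = 3 for input). On the left every FHY1-M3 library lies below the inputs in all 5 classes, and on the right only H4 lies above the inputs in every FHY1-M3 library.

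H1 was represented by 3 tested genes. HIST1H1E, which encodes linker histone H1.4, stood at 202 and 150.1 CPM with the ACTB sgRNA, 239.7 and 208 with con, 227 and 245 with non-target, and 1087, 1500 and 1662 CPM in the inputs. All 3 inputs were far above all 6 FHY1-M3 libraries. Its log2 fold change was -2.75 (SE 0.11, adjusted p = 6.777e-22). HIST1H1C, which encodes H1.2, was at 112 to 186 CPM in the FHY1-M3 libraries and 856 to 1235 CPM in the inputs (log2 -2.82, SE 0.12, adjusted p = 3.962e-21). HIST1H1D (H1.3) changed by -2.67 (SE 0.27). The 3 H1 values lay within 0.15 log2 units of each other, and the groups did not overlap for any of them.

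Among the H2A genes, HIST1H2AG had the highest level. It was at 47.5 and 68.8 CPM with the ACTB sgRNA, 42.9 and 48.3 with con, 36.5 and 32.8 with non-target, and 353, 349.5 and 314 CPM in the inputs (log2 -2.91, SE 0.17, adjusted p = 3.753e-16). HIST1H2AH fell in like measure (-2.78, SE 0.26). HIST2H2AC was at 4.14 and 24.3 CPM with the ACTB sgRNA, 10.1 and 16.8 with con, 4.3 and 8.2 with non-target, and 205, 257 and 196 CPM in the inputs. It fell by 20.8-fold (log2 -4.38, SE 0.32), and its 2 libraries with the ACTB guide lay far apart.

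HIST1H2AB fell furthest of all 43, by 45.6-fold (log2 -5.51, SE 0.73, adjusted p = 4.983e-07). It stood at 0 to 3.32 CPM in the FHY1-M3 libraries and 52.0, 48.8 and 47.0 CPM in the inputs, so its fold rests on few counts. Without non-target replicate 2 its log2 fold change was -6.45. At the other end of the class, HIST3H2A, of the small HIST3 cluster on chromosome 1, was at 19.4 to 52.5 CPM against 194, 117 and 68.0 CPM (log2 -1.91, SE 0.31, adjusted p = 1.752e-05). HIST2H2AA3 did not pass the test (log2 -2.88, SE 1.58, adjusted p = 0.209), with 0 to 1.57 CPM in the FHY1-M3 libraries and 5.78, 9.75 and 0 CPM in the inputs.

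H2B genes, whose protein pairs with H2A, had the largest mean share of the histone counts in both kinds of library. HIST1H2BK was at 112 and 145 CPM with the ACTB sgRNA, 104 and 105 with con, 118 and 141 with non-target, and 431, 520.1 and 567 CPM in the inputs (log2 -2.07, SE 0.14). HIST2H2BE was at 53.3 to 69.1 CPM against 499 to 544 CPM (log2 -3.14, SE 0.14, adjusted p = 3.21e-20). HIST1H2BD changed by -2.98 (SE 0.17). HIST1H2BC fell furthest of the class, from 179, 279.6 and 308 CPM in the inputs to 10.6 to 26 CPM (log2 -3.85, SE 0.24). Between HIST1H2BK and HIST1H2BC the fall therefore ran from 4.21-fold to 14.4-fold. HIST1H2BG (log2 -1.51, SE 1.48, adjusted p = 0.520) and HIST1H2BE (-2.07, SE 1.28, adjusted p = 0.272) did not pass. Each was at 0 in 1 of the 3 inputs and under 5 CPM in the 6 FHY1-M3 libraries.

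HIST1H3B had the highest level of the H3 genes, whose protein pairs with H4 in the nucleosome core. It was at 50.8 and 47.4 CPM with the ACTB sgRNA, 63.4 and 59.3 with con, 87.6 and 68.3 with non-target, and 468, 588 and 648 CPM in the inputs (log2 -3.20, SE 0.14, adjusted p = 2.3e-20). HIST1H3H fell by 10.9-fold (log2 -3.45, SE 0.26). HIST1H3F fell by 24.7-fold (log2 -4.63, SE 0.40), from 101, 104 and 126 CPM to 1.37 to 6.45 CPM. HIST1H3J, singled out after its values were seen, was at 58.5 CPM in input replicate 2 and 17.4 and 20.9 CPM in the others, against 5.47 to 13.8 CPM. Its call (log2 -1.64, SE 0.53, adjusted p = 0.0239) was lost without that input (log2 -0.84, adjusted p = 0.435) and without ACTB, con or non-target replicate 2 (adjusted p = 0.0592, 0.0583 and 0.0559). HIST1H3E (-1.64, SE 1.04, adjusted p = 0.286) and HIST2H3C (-0.87, SE 1.55, adjusted p = 0.746) did not pass, and HIST2H3C had counts in 1 of the 3 inputs.

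The tested H4 genes spanned 5.63 log2 units, the widest range of the 5 classes. The upper end of that range was HIST1H4I, which was not called and lies within the span of HIST1H2BK. HIST1H4D was at 4.97 and 6.36 CPM with the ACTB sgRNA, 8.32 and 3.15 with con, 6.99 and 2.73 with non-target, and 249, 231 and 251 CPM in the inputs. That was a fall of 44.2-fold (log2 -5.46, SE 0.28, 95% interval -6.04 to -4.89, adjusted p = 3.244e-18). HIST1H4C was at 98.4 and 115 CPM with the ACTB sgRNA, 117 and 119.7 with con, 123 and 133 with non-target, and 237, 338 and 282 CPM in the inputs. It fell by 2.46-fold (log2 -1.30, SE 0.16, interval -1.62 to -0.97, adjusted p = 1e-07). With annotated spans of 403 bases (HIST1H4D) and 405 bases (HIST1H4C), the genes had like levels in the inputs, while the FHY1-M3 libraries held many times more HIST1H4C than HIST1H4D.

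HIST1H4E, also high in the inputs (306, 345 and 339.8 CPM), stood at 28.3 to 41.6 CPM in the FHY1-M3 libraries (log2 -3.19, SE 0.18). HIST1H4B, singled out after its values were seen, fell much less than HIST1H4E. It was at 25.1 to 47.1 CPM in the FHY1-M3 libraries and 98.3, 71.5 and 109.8 CPM in the inputs (log2 -1.33, SE 0.30, adjusted p = 0.00119). HIST4H4, the one member of its cluster, fell by 2.41-fold (log2 -1.27, SE 0.41, adjusted p = 0.0248). That call was lost without any of ACTB replicate 1 or 2, con replicate 1, non-target replicate 1 or input replicate 2, with adjusted p from 0.0541 to 0.161. HIST1H4I did not pass (log2 0.16, SE 0.88, adjusted p = 0.926), with 2.76 to 15.4 CPM against 5.78, 4.88 and 10.5 CPM.

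**Figure D3:**
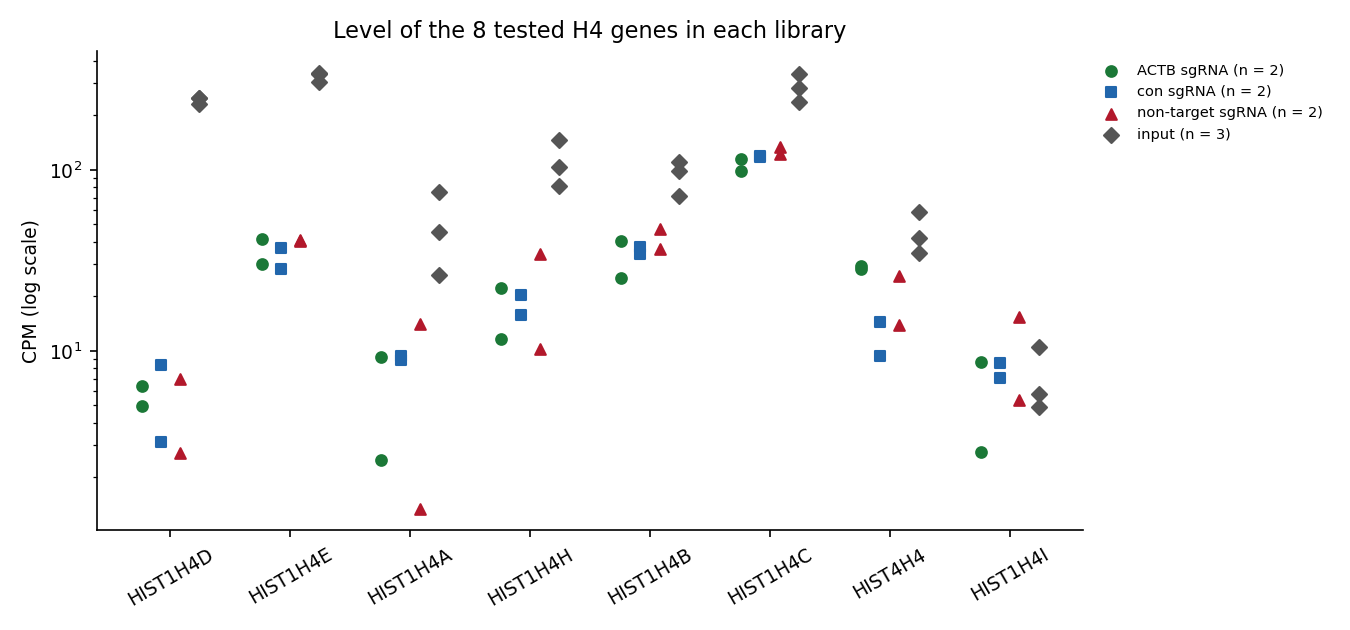
Level of the 8 tested H4 genes in each library, in CPM on a log scale, with 1 point per library (n = 2 per guide, n = 3 for input). HIST1H4D is high in the inputs and below 10 CPM in every FHY1-M3 library, HIST1H4C stays near 100 CPM or above in all, and HIST1H4I overlaps between the groups.

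Ratios of counts within a library do not depend on its scaling. HIST1H4D to HIST1H4C was 0.0205 to 0.0711 in the 6 FHY1-M3 libraries and 0.683 to 1.05 in the 3 inputs. HIST1H4D to HIST1H4E was 0.0667 to 0.224 against 0.670 to 0.811. In the other direction, HIST1H4B to HIST1H4E was 0.835 to 1.32 against 0.208 to 0.323. No ratio overlapped between the groups, and the H4 genes stood in different proportions in the 2 kinds of library. These ratios were chosen after the values were seen and are given as descriptions.

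Levels per length were set side by side for the 37 tested members with an annotated span under 1000 bases. Per kilobase, the inputs had HIST1H1E highest at 1800 CPM, then HIST1H1C (1471), HIST1H3B (1112), HIST1H4E (802), HIST1H2BJ (799) and HIST1H4C (706). In the FHY1-M3 libraries HIST1H4C came first at 291 CPM per kilobase, before HIST1H1E (269), HIST1H1C (210), HIST1H3B (123) and HIST1H4B (94.9). HIST1H4B thus stood at rank 5 against rank 18 in the inputs, and HIST1H4D at rank 29 against rank 8. In the inputs HIST1H4E and HIST1H2BJ did not differ beyond their spread, and the same was true of HIST1H4C and HIST1H1E in the FHY1-M3 libraries.

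By cluster, the summed level was lower by 6.68-fold for HIST1, 7.60-fold for HIST2, 5.16-fold for HIST3 and 2.23-fold for HIST4. HIST1 had 29 of 33 tested genes lower, HIST2 had 5 of 7, HIST3 had 2 of 2 and HIST4 had 1 of 1, against 8.6% of all rows. The 7 members with described polyadenylated forms (HIST1H1C, HIST1H2AC, HIST1H2BC, HIST1H2BD, HIST1H2BJ, HIST1H2BK and HIST2H2BE) were all lower, with a median log2 fold change of -3.14. Of the other 36 tested, 30 were lower, with a median of -2.69.

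H2A and H2B genes often lie head to head and share a promoter. Among the 66 members with a promoter row, from which start and strand were taken, 11 such pairs had starts 194 to 248 bases apart, and 6 of these had both genes tested. HIST2H2BE and HIST2H2AC changed by -3.14 and -4.38, HIST1H2BJ and HIST1H2AG by -3.42 and -2.91, and HIST1H2BC and HIST1H2AC by -3.85 and -3.57. HIST3H2A and HIST3H2BB changed by -1.91 and -2.96, HIST1H2BL and HIST1H2AI by -2.47 and -3.49, and HIST1H2BG and HIST1H2AE by -1.51 (not called) and -2.58. The 2 genes of a pair differed by 0.28 to 1.24 log2 units, and the H2A gene fell further in 3 of the 6. These differences were not tested. The SE was 1.48 for HIST1H2BG, and 0.24 and 0.31 for HIST1H2BC and HIST1H2AC, so the order within these pairs is uncertain. A further 5 of the 11 pairs had at least 1 gene below the filter. HIST1H2AH has no promoter row and was not placed in a pair. Its annotated span begins 248 bases after that of HIST1H2BK ends, and these neighbours changed by -2.78 and -2.07.

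**Figure D4:**
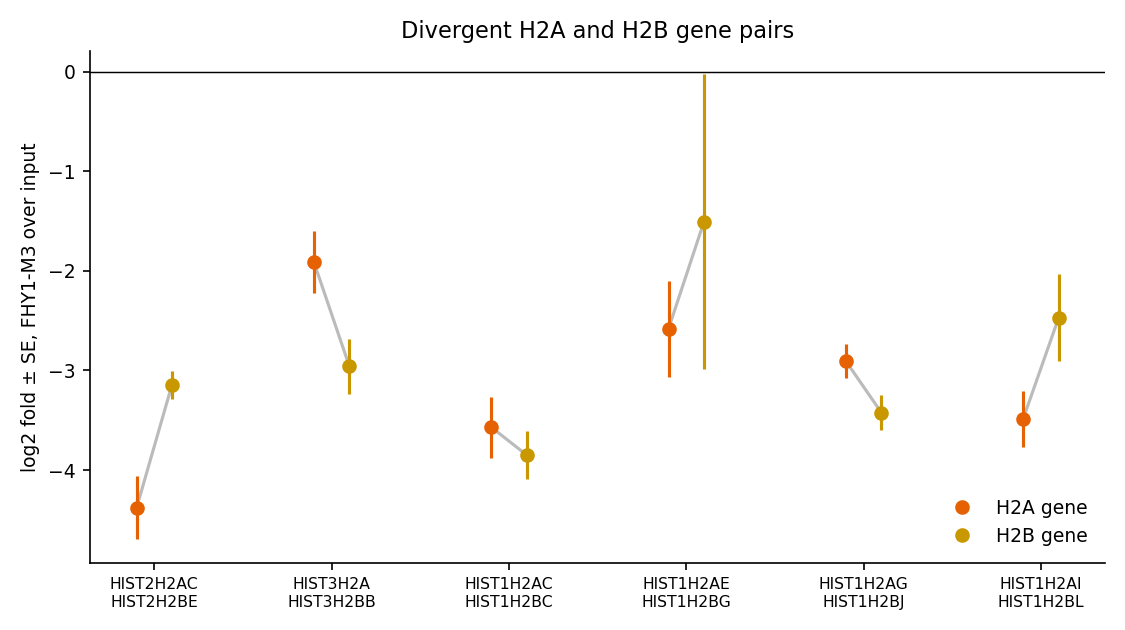
Log2 fold change ± SE, FHY1-M3 over input, of the H2A gene and the H2B gene in each of the 6 head-to-head pairs that the promoter rows give with both genes tested. All 12 values are below 0, and neither class is lower throughout.

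Each guide was also set against the inputs, which the 3 contrasts share. With the ACTB sgRNA 35 of 43 members were lower (3.97% of all rows), with con 36 (4.22%) and with non-target 34 (4.57%). None was higher, against 7.05%, 7.22% and 8.1% of all rows in that order. The median log2 fold changes were -2.73, -2.73 and -2.72. HIST1H1E changed by -3.01, -2.67 and -2.59 in that order, HIST1H3B by -3.53, -3.21 and -2.86, and HIST1H4C by -1.43, -1.28 and -1.17. HIST1H2AG ran in the opposite order, by -2.54, -2.89 and -3.28. HIST1H4D gave -5.41, -5.39 and -5.59.

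Whether the guides differed among themselves was tested in the 6 FHY1-M3 libraries, where 40 members passed the filter. None of the 40 was called between ACTB and non-target, ACTB and con, or con and non-target by edgeR's quasi-likelihood test. Of all 12808 rows, 0.25%, 0.0312% and 0.172% were called. An unadjusted p below 0.05 in edgeR's test was measured for 5, 4 and 2 of the 40 members. Over all 12808 rows it was measured for 1001, 494 and 673. DESeq2 called 0 members in each, with 7, 4 and 2 below that unadjusted level, and its counts over all rows are not given here. The lowest p between ACTB and non-target was that of HIST1H1E (log2 -0.42, SE 0.16, adjusted p = 0.475). Between ACTB and con it was HIST2H2BF (-0.95, SE 0.33, adjusted p = 1), at 26.5 and 35.9 CPM against 69.7 and 50.9 CPM. Between con and non-target it was HIST1H2BJ (-0.99, SE 0.38, adjusted p = 0.789), at 17.7 and 29.4 CPM against 38.1 and 55.4 CPM. The 95% interval of a member reached a median of 1.06, 1.04 and 1.06 log2 units to either side. These intervals are not adjusted for the number of rows tested. Differences between guides within a member's interval could have been missed.

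Other genes of the histone pathway changed in both directions between FHY1-M3 and input. Among 33 genes that act in histone transcription, 3′ end formation or decay, 7 rose (11.4% of all rows were higher). A fall was called in 3, near the share of all rows called lower (8.6%). The median log2 fold change of the 33 was 0.39. ZNF473, a zinc finger protein of the U7 particle, rose from 40.5, 39.0 and 20.9 CPM in the inputs to 184 to 239 CPM (log2 2.63, SE 0.24, adjusted p = 6.344e-11). CSTF2, a cleavage factor subunit, rose by 2.01 (SE 0.37), SRRT, a partner of the cap-binding complex, by 1.35 (SE 0.18) and UPF1, a helicase of RNA decay, by 1.27 (SE 0.16). CPSF3, the endonuclease, changed by 0.71 (SE 0.23). CDK2, the S phase kinase, fell by 0.81 on the log2 scale, TUT4, a terminal uridylyltransferase, fell by 0.76 and POU2F1, which binds the octamer, fell by 0.75.

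SLBP, the stem-loop binding protein, was at 102 to 156 CPM in the FHY1-M3 libraries and 57.8, 104 and 141 CPM in the inputs, which overlap (log2 0.32, SE 0.23, adjusted p = 0.352). NPAT, the coactivator of histone genes, changed by 0.48 (SE 0.29, adjusted p = 0.252). CASP8AP2, which acts in histone 3′ end cutting, changed by -0.16 (adjusted p = 0.697) and HINFP, a factor of H4 transcription, by -0.33 (adjusted p = 0.562). Of 24 S phase genes, 12 were higher and 0 lower, against 11.4% and 8.6% of all rows, with a median of 0.56.

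Replacement histones, made outside S phase as well and mostly from polyadenylated mRNAs, also changed in both directions. Of 11 tested, 2 fell and 3 rose (8.6% and 11.4% of all rows), and the median log2 fold change was 0.08. H2AFX, whose mRNA is known in a stem-loop and a polyadenylated form, was at 142 to 219 CPM against 393, 312 and 356 CPM (log2 -0.96, SE 0.15, adjusted p = 7.841e-06). H1FX, a linker histone, fell by 0.76 (SE 0.12). H1F0, the linker histone of resting cells, rose from 309 to 426 CPM in the inputs to 564 to 632 CPM (log2 0.72, SE 0.11), and H3F3B, which encodes H3.3, rose by 0.68 (SE 0.13). H2AFJ rose by 2.48 (SE 0.87, adjusted p = 0.0395) and was at 0 in 2 of the 3 inputs. H2AFZ (0.03, adjusted p = 0.908) and H3F3A (-0.17, adjusted p = 0.545) did not pass.

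Over all rows 8.6% fell and 11.4% rose, and the counts of the next 3 lists stand beside these shares. Of 20 histone chaperones, 4 fell and 6 rose, with a median of 0.24. Among 26 tested polyadenylated mRNAs of short intronless genes, 5 fell and 6 rose, with a median of 0.10. The 13 mitochondrial mRNAs all fell (median -3.92), and their share of the counts was 0.589% in the FHY1-M3 libraries and 7.67% in the inputs. Depth differed along with the groups, by 9.29 times between the median totals. With the FHY1-M3 libraries thinned to 462026 counts, the mean input depth, 35 members were lower. With scaling factors computed without mitochondrial and histone rows 37 were, against 1178 of the 13411 rows tested. Apart from that scaling, and a denominator without mitochondrial rows for the summed class levels, the part of the mitochondrial share in the histone values was not tested. The part of the kind of RNA was not tested either. Construct, guide and kind of library cannot be told apart in the comparison with input.

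**Figure D5:**
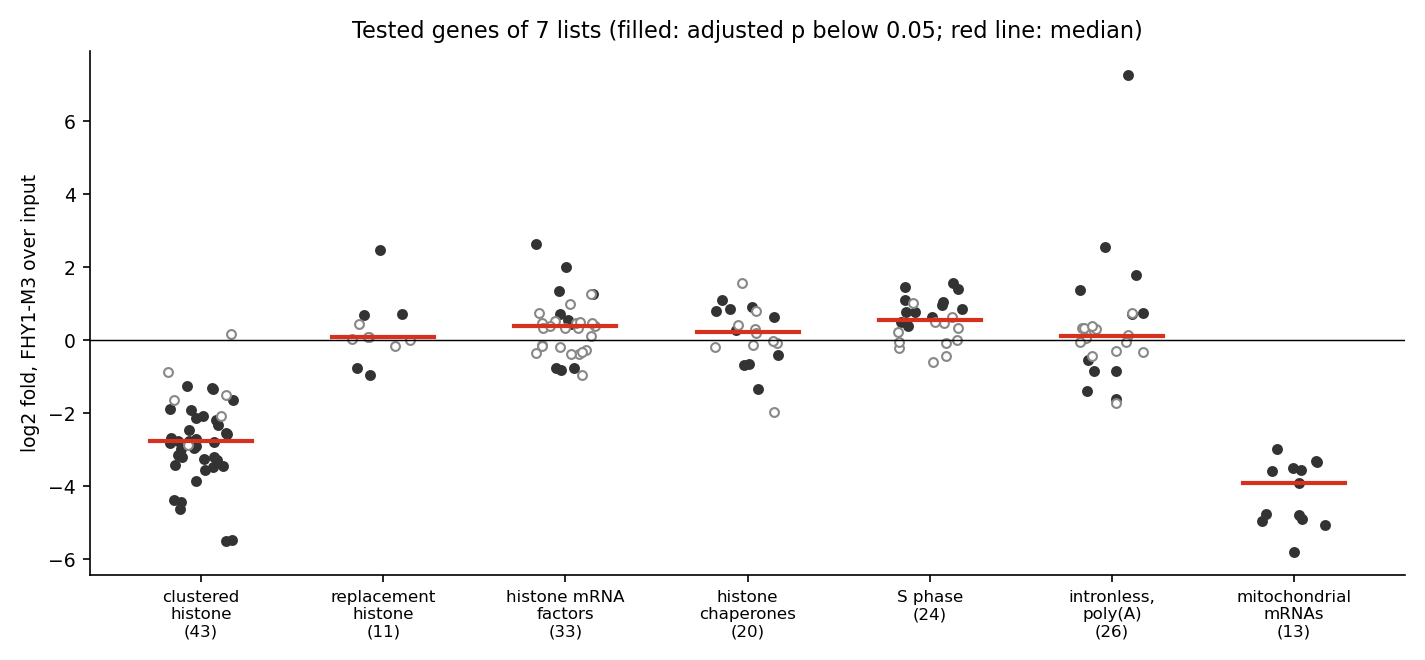
Log2 fold change, FHY1-M3 over input, of every tested gene in 7 lists, with 1 point per gene, filled where the adjusted threshold was passed, and a red line at the list's median (number tested in brackets). The histone and mitochondrial lists have medians of -2.75 and -3.92, and the medians of the other 5 lie between 0.08 and 0.56.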

How the data were processed

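Deposited read counts per gene for 19969 symbols in 9 libraries were used; they are whole numbers and, as far as their values show, the authors did not normalize them. Per the submitters' processing notes, STAR 2.7.10b, cutadapt 4.3, deepTools and the build hg38 were used. The library kit was directional, per the labels' protocols. For the counting tool, annotation and strand setting nothing is given in the sources used here. Of values from 1 to 20, 88.5% to 95.0% per library were even, so both mates of a pair appear to have been counted.

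Tests used edgeR 4.0.16 in R 4.3.3: TMM scaling, filterByExpr by group, the quasi-likelihood F test, two-sided, with Benjamini-Hochberg adjustment over all rows and a threshold of 0.05. Comparisons with input came from 1 fit of all 9 libraries, with the FHY1-M3 value as the mean of 3 guides, and comparisons between guides from 1 fit of 6. SE is the log2 fold change divided by the root of F. Where a mean ± SD is given for FHY1-M3, it is over the 6 libraries of all 3 guides. On simulated counts (12934 genes, FHY1-M3 against input) the test found 16%, 54%, 92% and 94% of changes of 1.5, 2, 4 and 8 times and made 8 false calls. The changed genes were drawn only from rows expected to reach a set count in the shallowest library. These rates therefore do not apply to members with few counts.

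Members and lists were chosen with earlier results of these data known. Named were, per class, the 3 members with the highest mean level and those with the lowest and highest fold, the members that missed the threshold, the member with the lowest p between guides, up to 3 below the filter, and genes of the factor and replacement histone lists. Members of head-to-head pairs were named by position. The marker genes were read as a check of the line, and not all those of other cell types were at 0. Alternatives covered scaling, filters, DESeq2 1.42.0, counts halved to pairs, a replicate block, thinning to 462026 counts, the libraries in the fit and leaving out each library. Treating the FHY1-M3 libraries as 1 group was added after seeing the data.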

Additional observations from a re-analysis of the deposited data

Results flagged for a closer look

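In 1 of 30 sets of 6 FHY1-M3 values examined, the highest library stood apart from the rest by Dixon's test, and chance gives about 1 in 20. The H3 genes took 0.01556% of the counts in non-target replicate 1, against 0.0110% to 0.0127% in the other 5 FHY1-M3 libraries.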

How the results depend on the processing

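Against input, 35 to 38 members were lower and 0 higher under every alternative run (37 with DESeq2, 38 without a filter, 35 after thinning, 35 to 37 with a library left out). Of the 13411 rows of the main fit, 1153 were lower and 1524 higher. These counts were 1054 and 1745 with library size only, and 1343 and 1251 with RLE scaling factors. With scaling factors computed without mitochondrial and histone rows they were 1178 and 1490. Counts over all rows under the other alternatives are not given here. HIST1H2AM was gained without the filter, on 10 counts in input replicate 2 and 0 in every other library. Calls lost by HIST4H4 and HIST1H3J stand beside their values, and HIST4H4 also lost its call after thinning (adjusted p = 0.0677). Between guides 0 members were called throughout. Summed class levels moved by less than the spread between replicates.

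Class medians of the log2 fold changes moved more; filters change which genes enter them. Without a filter they were -0.68 (H1), -3.18 (H2A), -1.89 (H3) and -2.23 (H4). At a mean of at least 10 CPM they were -3.28 (H2A), -3.04 (H2B), -3.31 (H3) and -2.62 (H4). DESeq2 was run on all rows with counts, so its medians also take in members below the low-count filter. It gave -2.33 (H1), -3.30 (H2A), -2.94 (H2B), -2.0 (H3) and -2.38 (H4). The part of the method itself in these shifts was not tested. Halved counts gave -3.21 (H2A) and -3.22 (H3). Thinned libraries gave -3.33 (H2A), -3.07 (H2B), -3.23 (H3), -2.77 (H4) and -3.05 over all members. With the FHY1-M3 libraries as 1 group H2A was at -3.17. Leaving out each library in turn gave -3.59 to -2.88 (H2A), -2.97 to -2.35 (H2B) and -2.05 to -1.54 (H4).

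With the replicate number as a block, 37 members were lower, and the medians were -3.48 (H2A) and -2.30 (H2B). No label ties the numbers across guides. Differences between replicates 1 and 2 correlated at 0.004, -0.0051 and -0.0123 between guides over all rows but at 0.306, 0.371 and 0.235 over the 43 members, so whether the numbers pair the samples for these genes is not settled. HIST1H2BG, not called, turned to 0.0525 under the block. With a library left out, uncalled HIST2H3C ran from -2.49 to 5.26 and turned without input replicate 2; uncalled HIST1H4I ran from -0.18 to 0.55 and turned without ACTB replicate 2, non-target replicate 2 and input replicate 2. Without non-target replicate 2, HIST2H2AB was at -5.15 and HIST1H4A at -3.52. The alternative without members that share a near-identical protein was not run. The shallower inputs limit the precision of members with few counts.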
